A study of Mus musculus with 3 samples.

Results

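Ly49-bearing double-negative T cells (Ly49+ DN T cells) are described here among tumor infiltrating lymphocytes (TILs) sequenced as single cells. They were chosen by transcripts: a cell had at least 2 unique molecular identifiers (UMIs) of *Cd3e*, at least 1 UMI of *Klra1* or *Klra6*, and none of *Cd4*, *Cd8b1*, *Foxp3*, *Ncr1* and *Cd163l1*. This gate took 1118 of 31943 cells, or 3.50%, after cells outside 1000 to 6000 detected genes or with 7.5% or more of their UMIs from mitochondrial genes had been set aside. CD8 T cells (9354 cells with at least 2 UMIs of *Cd3e*, at least 1 of *Cd8a* and of *Cd8b1*, and none of *Ncr1*) and NK cells (7513 cells with *Ncr1* and no *Cd3e*) of the same libraries served for comparison.

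The TILs came from subcutaneous MC38-Ova tumors of wild-type C57BL/6 Kaede mice. Photoconversion with violet light gives the Kaede protein of these mice a lasting red color in place of green. Each mouse received 250000 tumor cells, the tumor was photoconverted on day 13 and the tissue was taken on day 15, and the labels give isotype control treatment to all samples. Live CD45+ Ter119- CD11b-/low cells were sorted by color, so that Kaede-green (KG+) cells are those that entered after photoconversion and Kaede-red (KR+) cells those already in the tumor. KG+ cells made 2 libraries, named Kaede-green 1 and Kaede-green 2, and KR+ cells made 1, named Kaede-red. Ages, sexes and the number of mice behind a library are not given by the labels.

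Ly49 receptors are lectin-like receptors for MHC class I, encoded side by side in the natural killer gene complex, and are best known from NK cells, where most of them inhibit and a few activate. A small number of T cells also carry them, among them memory and regulatory-like CD8 T cells, NKT cells, γδ T cells and T cells of the gut epithelium that lack CD4 and the β chain of CD8. An αβ T cell transcribes the constant genes *Trac*, *Trbc1* and *Trbc2*, and a γδ T cell *Trdc* and the *Tcrg-C* genes, although unproductive γ transcripts also occur in αβ T cells and NK cells can transcribe *Trdc*. CD8 is either a pair of α and β chains, as on conventional cytotoxic T cells, or a pair of α chains.

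The genes that bear on what these cells are lie as follows in the genome (mm10, GENCODE annotation of GRCm38). *Klra1* (Ly49A) spans chr6:130363917-130386874 and *Klra6* (Ly49F) chr6:130013033-130026954, both protein coding on the minus strand. *Trdc* (chr14:54142851-54148868) lies upstream of *Trac* (chr14:54220521-54224206) within the same locus, and *Tcrg-C4*, a constant gene of the γ chain, is at chr13:19344558-19352756. *Cd8a* (chr6:71373427-71379173) and *Cd8b1* (chr6:71322788-71337494) are neighbors on the plus strand. In the last 500 bases of their transcripts, from which 3' libraries are read, none of the stretches of 90 bases of *Klra1*, *Klra6*, *Trac*, *Trdc* or *Tcrg-C4* was found in a related gene. Of those of *Klra7*, 6.57% were shared with a pseudogene, and of those of *Klra9* 12.4% with other Ly49 genes. Of those of *Trbc1*, 29.6% were shared with *Trbc2*, and of those of *Trbc2* 8.03% with *Trbc1*. *Klra3*, *Tcrg-C1* and *Tcrg-C2* shared 5.15%, 3.65% and 5.11% with related genes.

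Kaede-green 1 held 10498 cell barcodes and 87193225 UMIs, Kaede-green 2 12327 and 129438292, and Kaede-red 11956 and 175848894. Libraries shared 20, 28 and 36 barcodes pairwise. Ly49+ DN T cells were 408 of the 10000 cells of Kaede-green 1, a share of 4.08% (95% exact binomial interval 3.70 to 4.49). They were 385 of 11078 cells in Kaede-green 2 (3.48%, 3.14 to 3.83), and Kaede-red held 325 among 10865 (2.99%, 2.68 to 3.33). Kaede-red was the lowest, but it stood apart from the nearer Kaede-green library by less than the Kaede-green libraries stood apart from each other. Among cells with at least 2 UMIs of *Cd3e* the shares were 8.41%, 6.36% and 5.08% in the same order. Intervals cover counting error only, and with 1 KR+ library, which gives no spread of its own, no test between colors was run. By library in that order the median Ly49+ DN T cell held 8013, 8861 and 8884 UMIs, whereas the median CD8 T cell held 8848, 10341 and 13948 and the median NK cell 6079, 8076 and 16691. B cells, which should lack both genes, served as the background: 1.63% of 307 B cells (at least 2 UMIs of *Cd79a*, no *Cd3e* or *Ncr1*, median 4275 UMIs) held *Klra1* or *Klra6*. By the same measure 6.04% of CD8 T cells (median 11273 UMIs) and 19.2% of NK cells (median 8708 UMIs) held either gene.

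**Figure D1:**
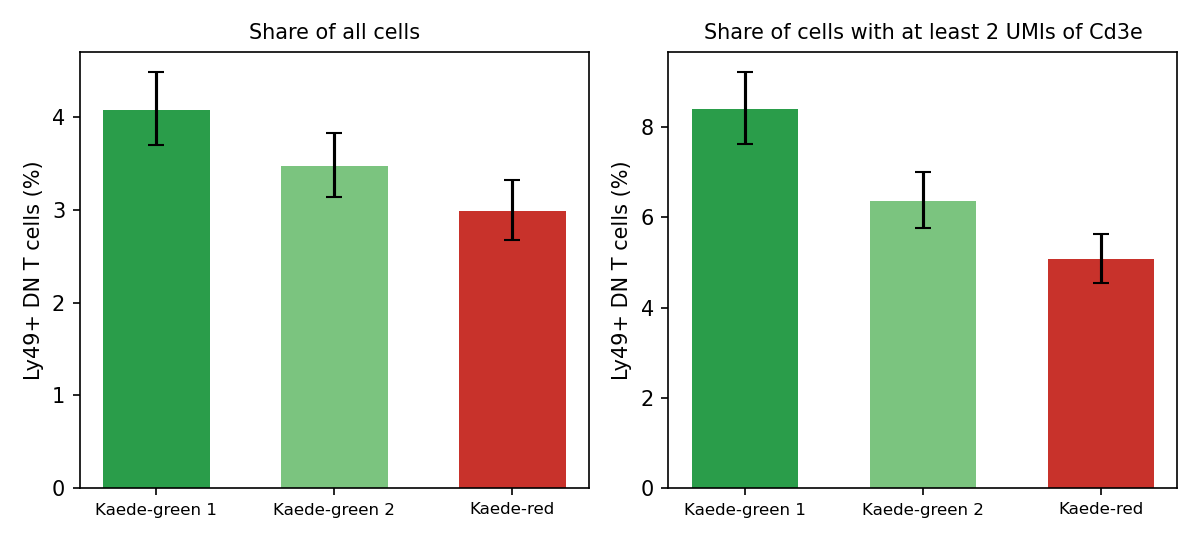
Share of Ly49+ DN T cells in each library, as a percentage of all cells after quality control (left) and of cells with at least 2 UMIs of Cd3e (right); bars start at 0 and lines are exact 95% binomial intervals. Kaede-green 1 is highest and Kaede-red lowest by both measures, 4.08% against 2.99% of all cells.

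The genes that chose the cells and the markers given for them are described without a test. *Klra1* stood at 266, 253 and 324 CPM (counts of UMIs scaled to a total of 1000000 per sum) in Ly49+ DN T cells, given here and in what follows in the order Kaede-green 1, Kaede-green 2, Kaede-red, and *Klra6* at 163, 156 and 144 CPM. Of the 1118 cells, 441 held *Klra1* only, 385 *Klra6* only and 292 both, and 284 (25.4%) held a single UMI of the pair. The given markers were at 66.6, 61.7 and 61.6 CPM for *Tcrg-C4*, 56.7, 42.7 and 41.9 CPM for *Nsg2*, a neuronal vesicle protein, and 221, 274 and 290 CPM for *Cd7*, a surface receptor of T and NK cells. All 3 were higher than in CD8 T cells (mean 6.06, 10.3 and 34.0 CPM) and in NK cells (mean 13.7, 1.24 and 68.4 CPM) in every library. They did not mark every cell: a UMI of *Tcrg-C4* was found in 31.5% of Ly49+ DN T cells, of *Nsg2* in 32.7% and of *Cd7* in 69.6%, against 0.65%, 0.33% and 5.54% of B cells.

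Most Ly49+ DN T cells carried α chain RNA. *Trac* stood at 591, 538 and 551 CPM in Ly49+ DN T cells, at 731, 714 and 762 CPM in CD8 T cells and at 44.9, 55.4 and 23.9 CPM in NK cells. The Ly49+ DN values lay just below all CD8 values and about an order of magnitude above all NK values. The difference from CD8 T cells did not pass the test (log2 fold change -0.36 ± 0.19 SE, edgeR adjusted p = 0.20), and that from NK cells did (3.81 ± 0.22, edgeR adjusted p = 1.1e-05). *Trbc2*, a β chain constant gene, was at 1475, 1356 and 1429 CPM, against 1857, 1717 and 1866 CPM in CD8 T cells and 297, 297 and 246 CPM in NK cells. It was lower than in CD8 T cells by a small margin without overlap (-0.32 ± 0.08, edgeR adjusted p = 0.017), which was not past the test without the library block (edgeR adjusted p = 0.075), without either Kaede-green library (0.12 and 0.17) or against CD8 T cells with *Klra1* or *Klra6* (0.35). A UMI of *Trac* was found in 91.7% of Ly49+ DN T cells, 98.2% of CD8 T cells, 32.0% of NK cells and 11.7% of B cells, and after thinning each cell to 2000 UMIs in 61.8%, 73.1%, 8.60% and 3.58%. The median depth of B cells was 4275 UMIs and that of Ly49+ DN T cells 8520.5.

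The δ and γ constant genes were above their level in CD8 T cells. *Trdc* was at 116, 74.4 and 108 CPM in Ly49+ DN T cells and at 24.8, 13.5 and 12.1 CPM in CD8 T cells (log2 fold change 2.67 ± 0.24 SE, edgeR adjusted p = 1.0e-04). NK cells, at 107, 93.6 and 47.3 CPM, overlapped with Ly49+ DN T cells (0.32 ± 0.22, edgeR adjusted p = 0.36). *Tcrg-C1* was higher than in both (38.1, 30.5 and 46.4 CPM against means of 7.06 CPM in CD8 T cells and 1.36 CPM in NK cells), and *Tcrg-C2* (72.5, 67.8 and 79.0 CPM) was not told apart from CD8 T cells, which reached 83.1 CPM in Kaede-red. Among 8 constant genes 6 were tested; 2 were higher and 2 (*Trbc1* and *Trbc2*) lower than in CD8 T cells, and 4 were higher and none lower than in NK cells. Without the library block, without either Kaede-green library or against CD8 T cells with *Klra1* or *Klra6* none was lower than in CD8 T cells. The background for these and all later list counts is the share of 12798 genes tested that was called at an adjusted p of 0.05. In Ly49+ DN T cells 11.7% were called higher and 15.2% lower than in CD8 T cells. Over NK cells the shares were 10.8% and 12.5%. Without the library block 601 genes were higher and 820 lower than in CD8 T cells, and 679 and 779 than in NK cells. Against CD8 T cells with *Klra1* or *Klra6* 238 of 10067 genes were higher and 413 lower. Counts of lists under these settings have to be read beside these lower totals.

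Cell by cell, 913 Ly49+ DN T cells (81.7%) held *Trac* and no *Trdc*, 112 (10.0%) held both, 61 (5.46%) held *Trdc* and no *Trac*, and 32 (2.86%) held neither. Thinned to 2000 UMIs the same classes took 59.8%, 2.06%, 7.25% and 30.9%. The share with *Trac* alone was 82.1%, 81.6% and 81.2% by library, and that with *Trdc* alone was 3.92%, 5.19% and 7.69% (16, 20 and 25 cells). The first was nearly the same in every library, and the intervals of the second overlapped. In CD8 T cells 0.20% held *Trdc* alone and 93.2% *Trac* alone, and in NK cells 27.0% and 17.9%. Double-negative T cells that met every condition but held no *Klra1* or *Klra6* (1584 cells) had *Trdc* alone in 16.8% and *Trac* alone in 65.1%. *Tcrg-C4* was found in 111 of the 173 cells with *Trdc* (64.2%) and in 299 of the 1025 with *Trac* (29.2%). Of the 352 cells with a UMI of it, 84.9% also held *Trac*, against 91.7% of all Ly49+ DN T cells. Its level was 48.7, 48.3 and 46.0 CPM in cells with *Trac* alone and 251, 230 and 147 CPM in cells with *Trdc* alone, without overlap. A UMI of *Trdc* was found in 15.5% of Ly49+ DN T cells and 3.26% of B cells (thinned 9.30% and 1.63%). So most cells of the gate had a UMI of *Trac*, and a minority had one of *Trdc* and none of *Trac*, some of which may hold *Trac* RNA that was not captured, since thinning alone raised their share. A single UMI of *Trac* may also be stray, since B cells held it too. With 2 UMIs as the threshold for each gene 3.40% of cells held both and 8.59% *Trdc* alone, so 5.46% is not an upper limit. How many cells either of these moved between classes was not tested.

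**Figure D2:**
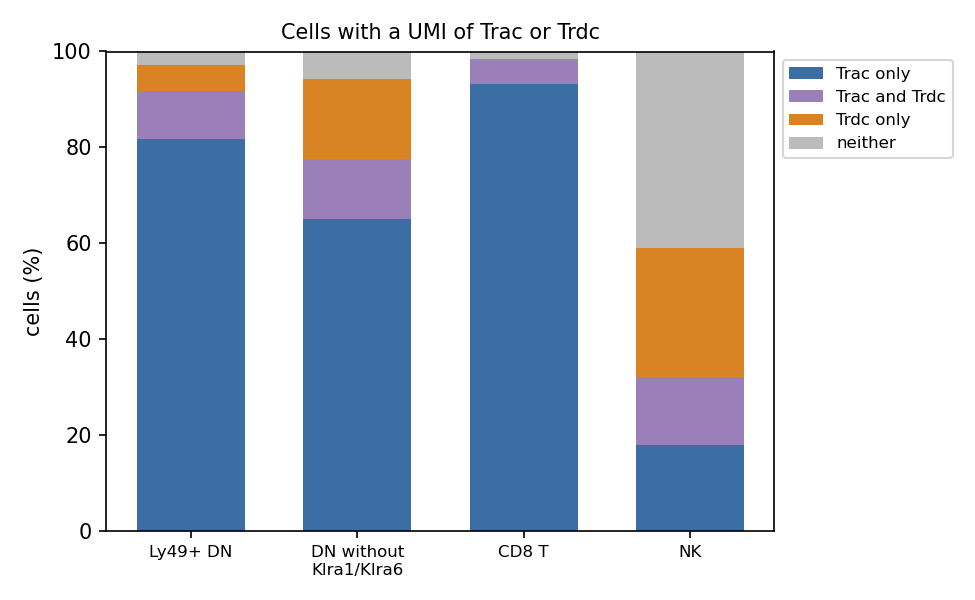
Percentage of cells with a UMI of Trac only, Trac and Trdc, Trdc only or neither, in Ly49+ DN T cells, double-negative T cells without Klra1 and Klra6, CD8 T cells and NK cells, all libraries together. Trac only covers 81.7% of Ly49+ DN T cells and 93.2% of CD8 T cells, and Trdc only 5.46% and 0.20%.

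The 61 cells with *Trdc* alone differed from the rest in more than *Trdc*, as a description. *Fcer1g* stood at 1271, 1375 and 1214 CPM in them and at 621, 578 and 679 CPM in cells with *Trac* alone. *Ikzf2* stood at 573, 437 and 406 CPM against 1107, 1035 and 1022 CPM. *Fcer1g* was thus higher and *Ikzf2* lower in all 3 libraries without overlap. Of 12 γ and δ variable genes tested 5 were higher and none lower in Ly49+ DN T cells than in CD8 T cells, and 9 higher and 2 lower than in NK cells. The first count was 2 without the library block, 2 without Kaede-green 1, 2 with at least 3 UMIs of *Cd3e* and 1 of 4 against CD8 T cells with *Klra1* or *Klra6*, and 8 of 21 without the filter on low counts. *Tcrg-V1* was found in 16 of the 61 cells and in 46 of the 913 with *Trac* alone, and *Trgv2* in 30 and 222. *Tcrg-V1*, *Tcrg-V4* and *Trgv2* were found in 7.16%, 3.67% and 27.2% of all Ly49+ DN T cells. In double-negative T cells without *Klra1* and *Klra6* they were found in 6.63%, 4.04% and 25%, so they were not particular to Ly49+ DN T cells. Of 15 genes of innate-like T cells, a list that also holds *Ikzf2*, *Fcer1g* and *Cd160*, 6 were higher and 3 lower than in CD8 T cells, and 3 of 11 higher and 3 lower than in those with *Klra1* or *Klra6*.

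Variable gene usage was broad. A UMI of any *Trav* gene was seen in 28.5% of Ly49+ DN T cells, from 63 genes, and the most frequent, *Trav16n*, made up 9.40% of these cells. In CD8 T cells a *Trav* gene was seen in 29.4% of cells, and *Trav16n* again led with 12.2%. A *Trbv* gene was seen in 24.5% of Ly49+ DN T cells, from 20 genes, with *Trbv12-2* in 17.2% of them, against 18.6% of those of CD8 T cells. *Trav11*, the α variable gene of invariant NKT cells, was seen in 2 Ly49+ DN T cells. *Zbtb16*, their transcription factor, reached 1.88, 3.17 and 0.843 CPM, above CD8 T cells (mean 0.350 CPM, log2 fold change 2.46 ± 0.45 SE, edgeR adjusted p = 0.0042; 0.071 without Kaede-green 2) and not told apart from NK cells. *Sox13*, a transcription factor of γδ T cells that make IL-17, had no UMI. *Il23r* had no UMI in the 1118 cells, and a count of 0 allows up to 0.268% of cells with a UMI (3 counts of 1118, a limit for counting error), which does not limit the share of cells that express it. The gate left out cells with *Cd163l1*, a gene of γδ T cells that make IL-17, so it favors counts of 0 for *Sox13* and *Il23r*.

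*Cd8a* was the gene of the CD8 pair that the gate did not restrict, and the name double-negative does not hold for it in every cell. It stood at 67.2, 87.1 and 78.7 CPM in Ly49+ DN T cells, at 632, 724 and 880 CPM in CD8 T cells and at 5.44, 23.4 and 7.21 CPM in NK cells. A UMI of *Cd8a* was found in 24.8%, 41.8% and 34.2% of Ly49+ DN T cells, together 373 cells. The same shares were 2.00%, 19.0% and 14.3% in B cells and 3.78%, 19.4% and 12% in NK cells, so Kaede-green 2 was highest in all of them. Every Ly49+ DN share was above that of NK cells of its library and, in both Kaede-green libraries, above that of B cells. In Kaede-red the B cell share is 1 of 7 cells (interval 0.361 to 57.9) and sets no background. Thinned to 2000 UMIs, 11.8% of Ly49+ DN T cells, 2.64% of NK cells and 1.95% of B cells held it. *Cd8a* without *Cd8b1* was seen more often beside *Klra1* or *Klra6*. Among T cells with at least 3 UMIs of *Cd8a* and none of the other excluded genes, 119 of 488 with *Klra1* or *Klra6* lacked *Cd8b1* (24.4%, interval 20.6 to 28.4), against 105 of 7073 without (1.48%, 1.22 to 1.79). The shares were 28.8%, 21.6% and 25.3% against 2.31%, 2.02% and 0.752% by library, and median UMIs per cell were 14565 and 11700. *Cd8b1* is part of the gate, so these shares describe where the gate fell and carry no test.

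**Figure D3:**
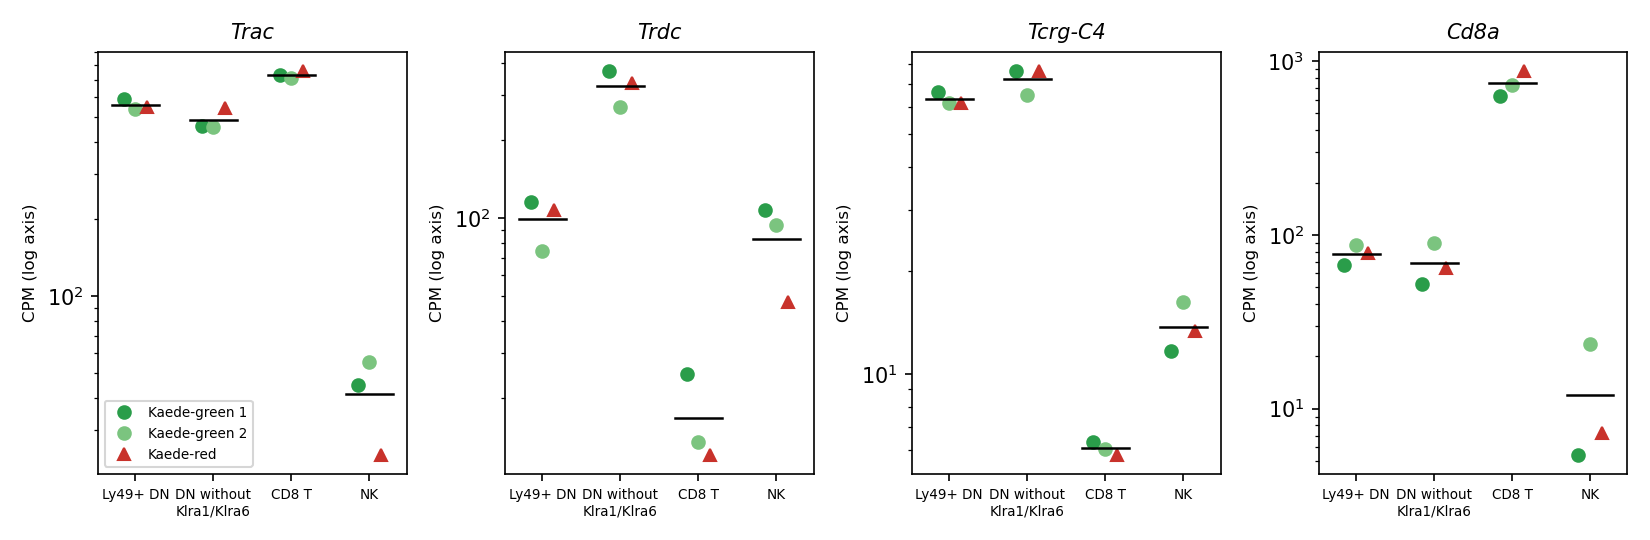
CPM of Trac, Trdc, Tcrg-C4 and Cd8a in Ly49+ DN T cells, double-negative T cells without Klra1 and Klra6, CD8 T cells and NK cells; each point is a library (circles Kaede-green, triangle Kaede-red), the line is the mean, and the axis is logarithmic. Trac lies near CD8 T cells, Cd8a lies between CD8 T cells and NK cells, and Trdc and Tcrg-C4 lie above CD8 T cells.

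Across all genes, 1493 were higher and 1940 lower in Ly49+ DN T cells than in CD8 T cells, and 1383 were higher and 1601 lower than in NK cells, by edgeR's quasi-likelihood test on the 9 sums of 3 groups in 3 libraries. These counts were lower without the library block (601 and 820, 679 and 779) and without Kaede-green 2 (666 and 870, 689 and 706). The median log2 fold change over all genes tested was -0.02 and -0.01. Both comparisons share the Ly49+ DN sums, and the conditions on *Cd3e* and *Ncr1* fix that T cell genes are higher and NK genes lower than in NK cells. Over CD8 T cells the gates favor higher genes that go with *Klra1* or *Klra6* and lower genes that go with *Cd8a* and *Cd8b1*. *Cd4*, *Foxp3* and *Cd163l1* were excluded from Ly49+ DN T cells and not from CD8 T cells, which favors lower levels of genes that go with them. Sums cannot tell more cells with a transcript from more transcript in each cell.

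*Ikzf2*, which encodes the Ikaros family transcription factor Helios, was the most abundant of the 10 genes with the largest smaller fold change over both comparisons. It stood at 1053, 980 and 936 CPM in Ly49+ DN T cells, at 212, 245 and 275 CPM in CD8 T cells and at 117, 140 and 118 CPM in NK cells. No library of either group came near (log2 fold change 2.07 ± 0.11 SE from CD8 T cells, edgeR adjusted p = 1.2e-05, and 2.98 ± 0.12 from NK cells, edgeR adjusted p = 2.0e-06). A UMI was found in 91.1% of cells (thinned 73.5%), against 54.0% of CD8 T cells (24.7%), 42.1% of NK cells (16.6%) and 4.23% of B cells (1.30%). *Id3*, an inhibitor of E proteins, followed the same order at a lower level. Its values were 55.9, 70.3 and 49.8 CPM, against at most 18 CPM in CD8 T cells and 5.56 CPM in NK cells (2.51 ± 0.25, edgeR adjusted p = 1.8e-04, and 3.74 ± 0.27, edgeR adjusted p = 2.9e-05). *Tmem108*, *Pakap*, *Amz2*, *Kcnj8* (a subunit of ATP-sensitive potassium channels), *S1pr1*, *Tdrp*, *Il6st* (gp130, shared by the IL-6 family of receptors) and *Tcrg-C1* complete the 10. The symbol *Pakap* is shared by more than 1 identifier, and the row meant is ENSMUSG00000038729. *Il6st* was at 42.7, 32 and 23.6 CPM against means of 12.1 CPM in CD8 T cells and 3.31 CPM in NK cells. Of the 10, *Il6st*, *Tdrp* and *S1pr1* did not pass the test against CD8 T cells without the library block, and these 3, *Tmem108* and *Id3* did not against CD8 T cells with *Klra1* or *Klra6*.

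Lineage transcription factors split evenly by count: of 23 tested, 8 were higher and 8 lower than in CD8 T cells, and 8 and 8 than in NK cells, with a median of 0.13 and -0.25. Without the library block 5 were higher and 7 lower, and 5 and 6, and without Kaede-green 2 the counts over NK cells were 5 and 5. Beside *Ikzf2* and *Id3*, the higher ones included *Tcf7* and *Lef1*, partners in Wnt signaling that mark naive and memory T cells. *Tcf7* was at 122, 136 and 117 CPM against 69.2, 45.9 and 18.8 CPM in CD8 T cells (log2 fold change 1.66 ± 0.29 SE, edgeR adjusted p = 0.0033). *Eomes*, which NK cells need, was at 34.4, 36.1 and 26.4 CPM, against 29.0, 25.0 and 10.7 CPM in CD8 T cells and 223, 192 and 91.3 CPM in NK cells. It overlapped with CD8 T cells across libraries and was higher within each (0.70 ± 0.17, edgeR adjusted p = 0.013). This call was lost without the library block (edgeR adjusted p = 0.32), without cells holding *Cd8a* (0.10) and without Kaede-green 2 (0.068), and against CD8 T cells with *Klra1* or *Klra6* the difference turned to -0.21 (0.52). Against the same cells *Id3* (0.75, edgeR adjusted p = 0.057), *Tcf7* (0.46, edgeR adjusted p = 0.0725) and *Lef1* (0.36, edgeR adjusted p = 0.25) did not pass the test. *Lef1* did not pass it without the block (edgeR adjusted p = 0.0555) or without Kaede-green 2 (0.065) either. *Id2*, *Tbx21*, *Prdm1* (Blimp-1) and *Zeb2*, factors of effector cells, were lower than in both groups, *Id2* at 223, 204 and 174 CPM against 448, 600 and 728 CPM in CD8 T cells (-1.53 ± 0.19, edgeR adjusted p = 7.2e-04). *Prdm1*, at 5.91, 3.17 and 1.41 CPM, lost the call over NK cells under 5 alternatives, among them without the block and without either Kaede-green library, and *Zeb2* lost it without Kaede-green 2. *Rora* and *Tox* were lower than in CD8 T cells, and *Tox* was higher than in NK cells. Against CD8 T cells with *Klra1* or *Klra6*, 1 of 21 factors was higher and 4 were lower, and *Tbx21*, *Zeb2* and *Tox* did not pass the test. Over all genes that comparison called 238 of 10067 higher and 413 lower.

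The Ly49 family beyond the gate was partly shared with NK cells. *Klra7* (Ly49G) was at 439, 416 and 446 CPM, at 28.9, 56.9 and 17.4 CPM in CD8 T cells and at 459, 409 and 384 CPM in NK cells. It was thus far above CD8 T cells (log2 fold change 3.80 ± 0.32 SE, edgeR adjusted p = 9.2e-05) and within the range of NK cells (0.05 ± 0.29, edgeR adjusted p = 0.93). *Klra9* (Ly49I) and *Klra3* (Ly49C) were higher than in CD8 T cells and lower than in NK cells, *Klra3* not past the test against CD8 T cells with *Klra1* or *Klra6* and *Klra9* not against NK cells without Kaede-green 1. *Klra8* (Ly49H) and *Klra4* (Ly49D), which activate through DAP12, were low, at 16.9, 18.8 and 6.47 CPM and 6.98, 20.3 and 20.5 CPM, against means of 311 and 373 CPM in NK cells. Of 9 members tested 4 were higher and none lower than in CD8 T cells, and none was higher and 4 were lower than in NK cells. The gate asks for *Klra1* or *Klra6*, which 6.04% of CD8 T cells held, so it favors a rise of this family over CD8 T cells. Against CD8 T cells with *Klra1* or *Klra6* 3 of 6 were higher and none lower. The summed level of the family was 596, 584 and 619 CPM, against 1775, 1409 and 1190 CPM in NK cells.

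Among signaling adaptors *Fcer1g*, the common γ chain of Fc receptors, took a middle place, and *Tyrobp* (DAP12), its counterpart in NK cells, stayed nearer to CD8 T cells. *Fcer1g* was at 672, 636 and 756 CPM in Ly49+ DN T cells, 94.6, 130 and 89.8 CPM in CD8 T cells and 3107, 2611 and 2330 CPM in NK cells. Its values lay apart from both groups (log2 fold change 2.76 ± 0.16 SE, edgeR adjusted p = 1.5e-05, and -1.96 ± 0.15, edgeR adjusted p = 4.4e-05). *Tyrobp* was at 194, 225 and 235 CPM, 66.9, 106 and 33.3 CPM in CD8 T cells and 2348, 2131 and 1958 CPM in NK cells. The UMIs of *Fcer1g* per UMI of *Tyrobp* were 3.45, 2.82 and 3.22 in Ly49+ DN T cells (mean 3.17 ± 0.32 SD, n = 3) and 1.32, 1.23 and 1.19 in NK cells (1.25 ± 0.069 SD, n = 3), and the ranges did not overlap. In CD8 T cells it was 1.42, 1.24 and 2.70, below every Ly49+ DN value. In B cells, which should lack both, *Fcer1g* was at 177 CPM and *Tyrobp* at 238 CPM over all libraries. *Tyrobp*, on which the ratio rests, was thus not above the B cell level in Ly49+ DN T cells. CD8 T cells lay below that level in every library, and B cells held fewer UMIs than Ly49+ DN T cells (median 4275 against 8520.5). The B cell level is therefore an uncertain background. *Fcer1g* and *Ikzf2* were found together in 897 cells. *Sh2d1b1*, *Plcg2* and *Lyn* were also higher than in CD8 T cells, while *Syk*, the kinase that *Fcer1g* and *Tyrobp* engage, was at 1.88, 1.95 and 1.97 CPM and did not pass the test. Of 12 adaptors and kinases 6 were higher and 2 lower than in CD8 T cells, and 1 was higher and 9 lower than in NK cells. None was higher than in NK cells without the library block or without either Kaede-green library, and against CD8 T cells with *Klra1* or *Klra6* 3 were higher and 1 lower, *Tyrobp* and *Lyn* no longer passing the test.

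Other NK receptors took no common place. *Klrb1c* (NK1.1) lay between the other groups. It was at 73.9, 53.4 and 69.2 CPM, at 9.54, 11.4 and 4.38 CPM in CD8 T cells and at 370, 267 and 177 CPM in NK cells, without overlap (log2 fold change 3.07 ± 0.27 SE, edgeR adjusted p = 1.0e-04, and -1.99 ± 0.25, edgeR adjusted p = 5.7e-04). *Cd160* was higher than in both, at 100, 120 and 168 CPM against means of 60.1 CPM and 43.2 CPM. *Klrc1* (NKG2A) and *Klrd1* (CD94), which pair as a receptor for Qa-1, were lower than in both. Without Kaede-green 2 *Klrd1* did not pass the test against CD8 T cells, nor *Klrc1* against NK cells, and without the library block *Klrd1* passed it against neither. Against CD8 T cells with *Klra1* or *Klra6* neither gene passed. Of 19 tested 6 were higher and 3 lower (1 without the block) than in CD8 T cells, and 2 were higher and 13 lower than in NK cells. Of 10 NK cell markers tested, 6 were higher and none lower than in CD8 T cells, and 3 were higher than in CD8 T cells with *Klra1* or *Klra6*. The summed level of the 10 was 1212, 1208 and 1352 CPM, against 360, 501 and 445 CPM in CD8 T cells and 6969, 5985 and 5260 CPM in NK cells. *Ncam1* and the gate gene *Ncr1*, outside this sum, were at 0. The part of NK cell RNA in these levels was not tested.

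**Figure D4:**
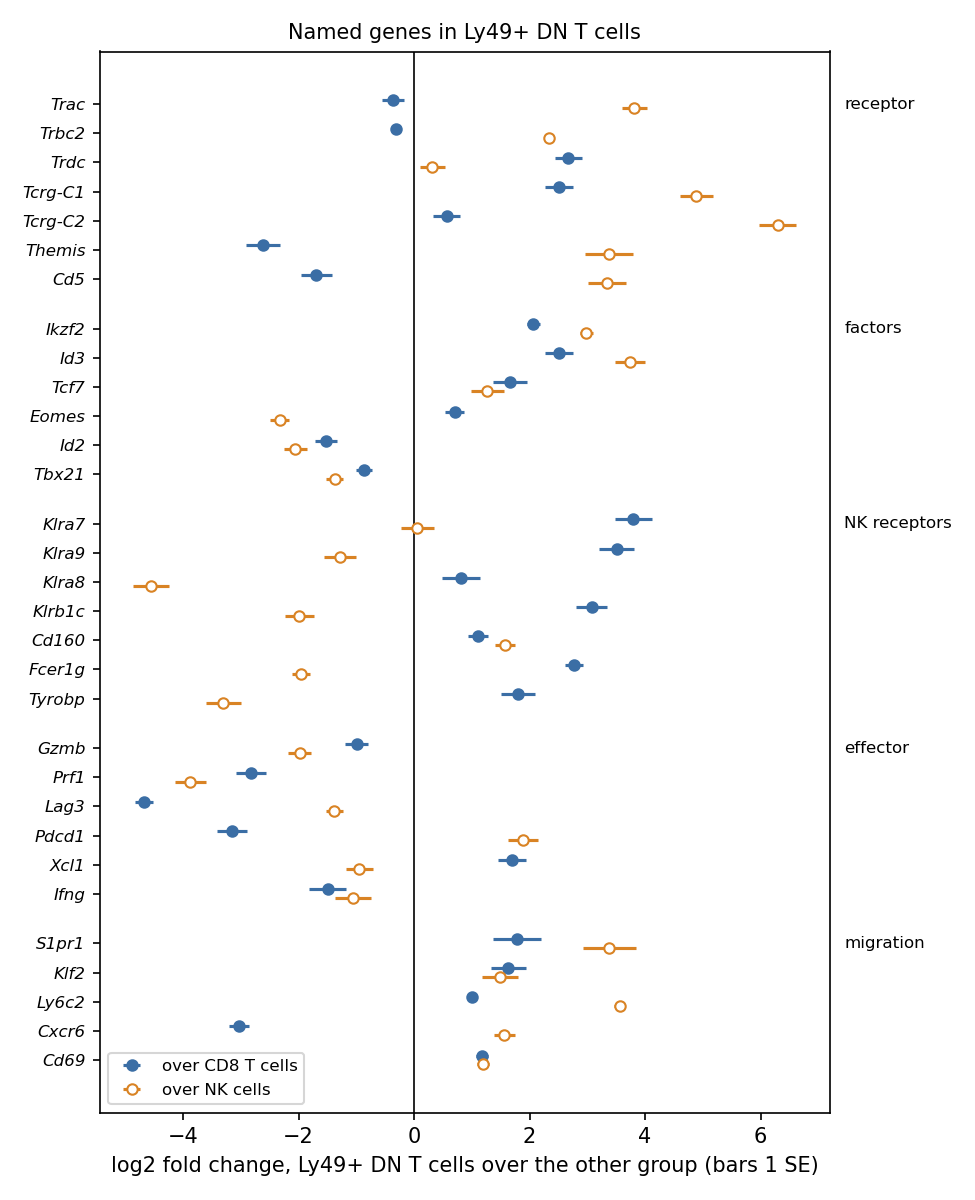
Log2 fold change of named genes in Ly49+ DN T cells over CD8 T cells (filled) and over NK cells (open), with bars of 1 SE from the fit on 9 sums; genes are grouped by role, and the line is 0. Ikzf2 and Id3 are positive in both, Klra7 is far above 0 over CD8 T cells and near 0 over NK cells, and Gzmb and Prf1 are negative in both.

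By size, the 12 largest rises over CD8 T cells were *Rbpms*, *Klra7*, *Hes1*, *Klra9*, *Zbtb10*, *Klrb1c*, *Clnk*, *Atp1b1*, *Fcer1g*, *Kcnj8*, *Trdc* and *Trf*. *Rbpms*, an RNA-binding protein, was at 66.1, 50.8 and 62.1 CPM against a mean of 4.56 CPM in CD8 T cells (log2 fold change 3.81 ± 0.25 SE, edgeR adjusted p = 2.9e-05), and it was not told apart from NK cells. Over NK cells the list was led by *Tdrp* (31.1 CPM on average against 0.447 CPM, log2 fold change 6.40 ± 0.49 SE, edgeR adjusted p = 4.3e-05), *Tcrg-C2* and *Tcrg-C1*. The T cell genes *Cd3d*, *Cd3g* and *Bcl11b*, whose direction the gate favors, followed, and *Dpp4* (CD26) and *Actn1* were also among the 12. The 12 largest falls from NK cells were *Khdc1a*, *Gzmg*, *Gzmc*, *Tmsb15a*, *Gzme*, *Spp1* (osteopontin), *Upp1*, *Klra8*, *Serpinb9b*, *Klra4*, *Gzmd* and *Pdgfa*.

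T cell receptor signaling genes were lower than in CD8 T cells in 10 of 18 genes and higher in 1, and higher than in NK cells in 14. *Themis*, which tunes selection in the thymus, was at 10.5, 14.2 and 7.87 CPM against 69.0, 67.3 and 63.5 CPM in CD8 T cells (log2 fold change -2.62 ± 0.30 SE, edgeR adjusted p = 3.7e-04). *Cd5* and *Cd6*, inhibitory coreceptors of T cells, and *Icos*, *Cd28* and *Lat* were lower too. *Cd5* stood at 22.8, 33.4 and 22.5 CPM against 86.9, 105 and 65.2 CPM, all CD8 values being higher (-1.70 ± 0.27, edgeR adjusted p = 0.0021). *Trat1* was the gene that was higher (2.36 ± 0.37, edgeR adjusted p = 0.0021), and *Cd2* and *Cd27* did not pass the test.

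Perforin and granzyme B of the cytotoxic granule were lower than in both groups. Of 17 granule genes 9 were lower and 1 (*Ctsw*) higher than in CD8 T cells, and 13 were lower and 1 (*Tnfsf10*) higher than in NK cells, with medians of -0.99 and -1.36. Without the library block 5 were lower than in CD8 T cells, *Gzmc*, *Gzmd*, *Gzme* and *Gzmg* no longer passing the test, and 9 lower than in NK cells, *Gzmd*, *Gzmf* and *Gzmg* among those lost. *Ctsw* and *Tnfsf10* did not pass it without the block or without either Kaede-green library. *Prf1* (perforin) was at 47, 54.7 and 55.1 CPM, against 232, 318 and 681 CPM in CD8 T cells and 769, 709 and 799 CPM in NK cells (log2 fold change -2.82 ± 0.26 SE, edgeR adjusted p = 1.2e-04, and -3.87 ± 0.26, edgeR adjusted p = 2.4e-05). *Gzmb* stayed at 1102, 1141 and 1165 CPM in Ly49+ DN T cells while CD8 T cells held 1770, 1892 and 3546 CPM and NK cells 5010, 4307 and 4058 CPM. Every Ly49+ DN value was under every other. *Gzmf* (4.30, 31.0 and 53.1 CPM) lay far below CD8 T cells (561, 625 and 3892 CPM), and 66 of its 127 UMIs in Kaede-green 2 were in 1 cell. *Gzma*, at 486, 667 and 339 CPM, was not told apart from CD8 T cells.

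Of 13 checkpoint and activation receptors 10 were lower and none higher than in CD8 T cells, with a median of -1.46. Over NK cells 4 were higher and 5 lower, against 1 and 4 without the library block and 1 and 3 without Kaede-green 1. *Lag3* was at 8.06, 16.3 and 21.1 CPM against 314, 336 and 528 CPM in CD8 T cells (log2 fold change -4.68 ± 0.15 SE, edgeR adjusted p = 2.0e-06), and it was also lower than in NK cells (-1.38 ± 0.15, edgeR adjusted p = 2.8e-04). *Pdcd1* (PD-1) was at 36.3, 49.3 and 50 CPM against 366, 335 and 542 CPM in CD8 T cells, again without overlap, and above 5.65, 13.7 and 18.3 CPM in NK cells. *Havcr2* (TIM-3) had 19 UMIs in all Ly49+ DN T cells and stood at 65.7 CPM on average in CD8 T cells. *Tff1*, *Slc17a6*, *Gldc*, *Smpdl3b*, *Igfbp7*, *Nrn1* and *Matk* were likewise near 0. *Tff1*, a trefoil peptide, had no UMI in Ly49+ DN T cells and 2817 in CD8 T cells, and was at least 82.2-fold lower against a floor of 3 counts over the group. With *Havcr2* and these, *Gzmf*, *Ccl1*, *Ifitm1* and *Mt2* complete the 12 largest falls from CD8 T cells, and *Lag3* is not among them. *Ifitm1* was at 67.2, 38.1 and 29.0 CPM against 1219, 988 and 1852 CPM.

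Genes of naive cells, of exit from tissue and of retention moved in both directions. Of 27 tested 11 were higher and 9 lower than in CD8 T cells, and 14 higher and 5 lower than in NK cells. Without the library block 5 were higher and 6 lower, and 10 higher and 2 lower, and against CD8 T cells with *Klra1* or *Klra6* 3 of 25 were higher and 7 lower. *S1pr1*, the receptor by which lymphocytes leave tissue, was at 152, 171 and 91.4 CPM, against 83.3, 66.4 and 11.9 CPM in CD8 T cells and 24.8, 29.8 and 2.30 CPM in NK cells. Each library of Ly49+ DN T cells was above all of the other groups (log2 fold change 1.78 ± 0.42 SE, edgeR adjusted p = 0.013, and 3.38 ± 0.45, edgeR adjusted p = 8.1e-04). *Klf2*, its activator, was at 472, 437 and 364 CPM and higher than in both groups. Without the library block neither passed the test against CD8 T cells (edgeR adjusted p = 0.30 and 0.12) or NK cells (0.057 and 0.19), nor did they against CD8 T cells with *Klra1* or *Klra6* (0.28 and 0.14). *Ly6c2* (Ly6C) was the most abundant gene of the list, at 2914, 2889 and 3260 CPM against 1591, 1565 and 1469 CPM in CD8 T cells and 267, 244 and 252 CPM in NK cells (1.01 ± 0.08, edgeR adjusted p = 8.6e-05, and 3.56 ± 0.09, edgeR adjusted p = 2.6e-07). *Ccr7* and *Il7r*, which naive and memory T cells use, were lower than in CD8 T cells and higher than in NK cells. *Cxcr6* and *Cx3cr1* were lower than in CD8 T cells, *Cxcr6* at 30.4, 34.9 and 40.2 CPM against 234, 299 and 350 CPM. *Cd69*, which opposes *S1pr1*, was higher than in both (508, 383 and 381 CPM against means of 198 CPM and 189 CPM).

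Immediate early genes, which tissue digestion also induces, were higher than in CD8 T cells in 9 of 15 and than in NK cells in 6, with none lower. The counts were 4 and 2 without the library block, and without either Kaede-green library 3 were higher than in NK cells. Without Kaede-red 2 were lower than in NK cells. Among cells with 4000 to 20000 UMIs 1 was lower than in CD8 T cells and 2 were lower than in NK cells. *Fos* was at 214, 132 and 141 CPM against means of 68.2 CPM in CD8 T cells and 91.9 CPM in NK cells. All 3 groups of a library went through the same digestion. The median mitochondrial share of UMIs was higher in Ly49+ DN T cells (4.23%, 3.78% and 3.34%) than in the other groups of each library. It was 3.31%, 2.88% and 2.35% in CD8 T cells and 2.87%, 2.68% and 2.43% in NK cells. The part of this share and of the immediate early genes in the other differences was not tested. Of 15 interferon-stimulated genes 5 were higher and 1 lower than in CD8 T cells, and 9 were higher than in NK cells. Without the block 2 and 6 were higher, without Kaede-green 2 3 were higher than in CD8 T cells, and 1 was against CD8 T cells with *Klra1* or *Klra6*. *Oasl1* was at 60.7, 53.7 and 36.3 CPM against 19.4, 15.0 and 6.76 CPM in CD8 T cells.

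Of cytokines and chemokines *Xcl1*, the ligand of dendritic cells that carry XCR1, stood out. It was at 969, 971 and 1192 CPM, at 359, 449 and 207 CPM in CD8 T cells and at 1734, 2255 and 2075 CPM in NK cells, a middle place without overlap (log2 fold change 1.69 ± 0.24 SE, edgeR adjusted p = 0.0012, and -0.95 ± 0.23, edgeR adjusted p = 0.017; 0.089 without Kaede-green 2). *Ifng* was lower than in both, at 75.8, 76.6 and 87.1 CPM against means of 233 CPM and 182 CPM, although NK cells of Kaede-red were at 69.8 CPM. Over NK cells it was just past the test (log2 fold change -1.06 ± 0.32 SE, edgeR adjusted p = 0.041), and the call was lost under 7 alternatives, among them without the library block (edgeR adjusted p = 0.0595) and without Kaede-green 1 (0.22) or Kaede-green 2 (0.27). Against CD8 T cells with *Klra1* or *Klra6* it was not told apart (-0.54, edgeR adjusted p = 0.40). *Areg*, *Csf1*, *Tnfsf11*, *Ltb* and *Tgfb1* were lower than in CD8 T cells. *Ltb* and *Tgfb1* did not pass the test without the library block, without Kaede-green 2 or against CD8 T cells with *Klra1* or *Klra6*. Of 18 genes tested 2 (*Lif* and *Xcl1*) were higher and 9 lower than in CD8 T cells, and 3 higher and 6 lower than in NK cells. Without the block 1 and 6, and 3 and 3, were, and 3 were lower than in NK cells without Kaede-green 2 or without cells holding *Cd8a*. Against CD8 T cells with *Klra1* or *Klra6* 4 of 15 were lower. *Lif*, at 4.57, 2.20 and 1.41 CPM, lost the call under 5 alternatives, among them without the block and without either Kaede-green library. *Ccl5*, the most abundant, did not pass the test against either. Among 19 cytokine receptors 3 were higher and 5 lower than in CD8 T cells, where 11.7% and 15.2% of all genes were called. Over NK cells 6 were higher and 4 lower (5 and 1 without Kaede-green 2), against 10.8% and 12.5% of all genes. The 3 higher than in CD8 T cells were *Il4ra*, *Ifngr1* and *Tgfbr1*. *Il2ra*, *Il7r*, *Il10ra*, *Il6ra* and *Tgfbr3* were lower, and 2 of 17 were higher and 2 lower against CD8 T cells with *Klra1* or *Klra6*. *Ifngr1* and *Il6ra* did not pass the test without the block, *Ifngr1* and *Il10ra* without Kaede-green 2, and *Il7r* without cells holding *Cd8a* or against CD8 T cells with *Klra1* or *Klra6*. *Il2rb*, the IL-2 and IL-15 receptor chain, was at 671, 583 and 502 CPM and not told apart from CD8 T cells (0.17 ± 0.14, edgeR adjusted p = 0.42). Its difference from NK cells passed the test, but not without Kaede-green 2.

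Markers of other cell types were measured in the same sums, and their part in the differences was not tested. B cell markers summed to 95.6, 132 and 130 CPM in Ly49+ DN T cells, of which *Ighm* made up 91.1, 105 and 125 CPM while *Cd79a* was at 1.07, 3.17 and 0. Myeloid markers summed to 720, 280 and 160 CPM, led by *Cst3*, and *Lyz2* stayed under 2 CPM in every library. In Kaede-green 1, 5 cells held 96.2% of the UMIs of *Cd74*, and without them it fell from 222 to 8.51 CPM. Mast cell and basophil markers summed to 14.5, 15.9 and 107 CPM, of which *Kit* made up 12.9, 15.1 and 13.8 CPM, while *Mcpt4*, the highest on average, was at 0.269, 0 and 50.6 CPM with 180 of its 181 UMIs in 1 Kaede-red cell. None of 4 tested differed from CD8 T cells. *Epcam* (18.5, 20.7 and 20.5 CPM) was higher than in both groups, and *Krt8* was at 0. Of 6 tested markers of CD4 and regulatory T cells 1 (*Cd40lg*, not without the library block, Kaede-green 2 or Kaede-red) was higher and 4 lower than in CD8 T cells, *Cd4* and *Foxp3* being 0 by the gate, and of 4 tested CD8 T cell markers 3 were lower and none higher. The gates favor lower levels in both of these lists. Cells with the top 8% of Scrublet doublet scores of a library made up 6.37%, 5.46% and 5.23% of Ly49+ DN T cells. Of 15 cell cycle genes 12 were lower than in CD8 T cells, none of them without the library block, and none passed the test against NK cells. *Top2a* was at 45.1, 78.8 and 121 CPM against 122, 186 and 256 CPM in CD8 T cells and 33.7, 79.8 and 139 CPM in NK cells.

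Ly49+ DN T cells also varied among themselves, given here as descriptions over 3 libraries. Cells with *Klra1* only and with *Klra6* only differed: *Klrb1c* was at 107, 90.9 and 108 CPM in the first and 39.8, 26.2 and 35.9 CPM in the second, and *Kcnj8* at 44.9, 41.6 and 37.1 CPM against 21.3, 12.4 and 16.6 CPM. *Cd8a* went the other way, with 50.1, 46.8 and 41.4 CPM against 89.2, 113 and 138 CPM. These 3 did not overlap between the classes. Cells with *Cd8a* held less *Trdc* than cells without it (13.6, 57.6 and 26.8 CPM against 159, 89.4 and 161 CPM) and less *Fcer1g* (461, 539 and 622 CPM against 761, 723 and 846 CPM). *Ikzf2* changed little, 1161, 986 and 1035 CPM with and 1007, 975 and 870 CPM without *Cd8a*.

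Values near the thresholds of the gate are given as a description. *Klra7* was at 101, 110 and 135 CPM in double-negative T cells with no UMI of the pair, at 259, 280 and 322 CPM in Ly49+ DN T cells with 1 UMI and at 503, 455 and 472 CPM in those with 2 or more. *Fcer1g* took the same order, 309, 402 and 359 CPM, then 512, 458 and 579 CPM, then 728, 688 and 793 CPM. *Ikzf2* rose from 554, 545 and 766 CPM at no UMI to 988, 974 and 1095 CPM at 1 UMI and did not rise further (1076, 982 and 903 CPM). Cells with no UMI of the pair had a median of 6656.5 UMIs, those with 1 of 7816 and those with 2 or more of 8837.5, so depth moved with the class and its part was not tested. At the threshold on *Cd3e*, 182 cells with 1 UMI fell just outside and 190 with 2 UMIs just inside. *Tyrobp* was at 497, 1167 and 1020 CPM in the former and 308, 459 and 408 CPM in the latter, and *Ikzf2* at 966, 392 and 545 CPM and 1014, 969 and 817 CPM. CD8 T cells with *Klra1* or *Klra6* (565 cells) shared some of the pattern: *Ikzf2* was at 505, 494 and 565 CPM, *Klra7* at 198, 206 and 219 CPM and *Fcer1g* at 268, 301 and 236 CPM, each between CD8 T cells at large and Ly49+ DN T cells.

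Between colors no test was run, since Kaede-red is 1 library. A gene was counted only where Kaede-red differed from both Kaede-green libraries by 1.5-fold in the same direction. The difference also had to exceed that between the Kaede-green libraries, with at least 20 CPM in the higher color. In Ly49+ DN T cells 78 of 5084 genes were higher (1.53%) and 75 lower (1.48%) in Kaede-red, in CD8 T cells 139 (2.66%) and 176 (3.37%) of 5230, and in NK cells 229 (4.43%) and 761 (14.7%) of 5167. The groups differ in cell number and depth, so these counts are not a test of how much a group changed.

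*S1pr1* was lower in Kaede-red in all 3 groups, in Ly49+ DN T cells at 91.4 against 152 and 171 CPM, in CD8 T cells at 11.9 against 83.3 and 66.4 CPM and in NK cells at 2.30 against 24.8 and 29.8 CPM. *Ccl5* fell from 4500 and 3472 to 2074 CPM in Ly49+ DN T cells, and to 1455 CPM in CD8 T cells and 267 CPM in NK cells. Of 15 interferon-stimulated genes with enough UMIs 4 were lower and none higher in Kaede-red, *Ifit1*, *Ifit2*, *Ifit3* and *Rsad2*; *Ifit1* was at 126 against 237 and 228 CPM. Of 14 cell cycle genes 6 were higher and none lower: *Stmn1* was at 342 against 111 and 156 CPM and *Tyms* at 59.0 against 13.4 and 19.8 CPM. *Ikzf2* (936 against 1053 and 980 CPM) and *Gzmb* (1165 against 1102 and 1141 CPM) were not among the genes counted.

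Some differences between colors rested on a few cells. *Gzmc* was at 730 CPM in Kaede-red against 43.8 and 105 CPM, and 5 of the 325 cells held 71.3% of its UMIs, and without them it was at 219 CPM, against 27.3 and 85.1 CPM in the Kaede-green libraries handled likewise. The mast cell proteases *Mcpt1*, *Mcpt4* and *Cma1* had 258, 180 and 81 UMIs in Kaede-red, all in 1 cell with 25397 UMIs that also held 3 UMIs of *Cd3e* and 11 of *Trac*. *Cd74* and *H2-Aa*, higher in Kaede-green 1, were in 5 cells there for 96.2% and 96.4% of their UMIs.

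**Figure D5:**
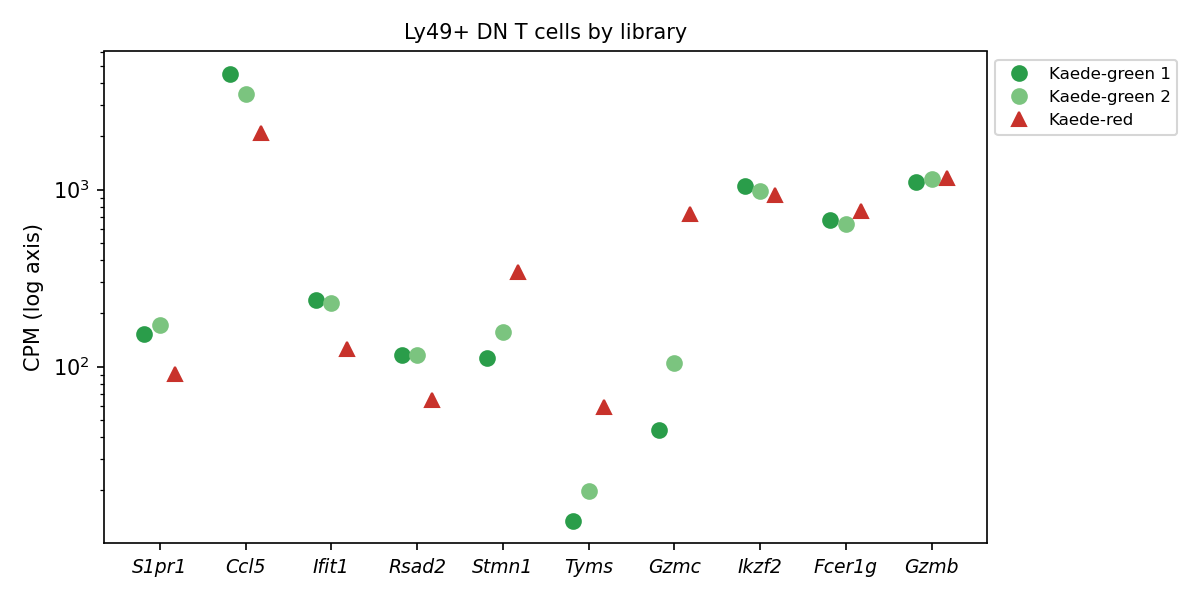
CPM in Ly49+ DN T cells of each library (circles Kaede-green 1 and 2, triangle Kaede-red) for genes named in the comparison of colors, on a logarithmic axis. S1pr1, Ccl5 and Ifit1 are lowest in Kaede-red, Stmn1, Tyms and Gzmc are highest there, and Ikzf2, Fcer1g and Gzmb lie close together. No test was run with 1 Kaede-red library.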

How the data were processed

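Single-cell 3' libraries were made from sorted TILs of 2 Kaede-green samples and 1 Kaede-red sample. The authors deposited filtered matrices of raw UMI counts per gene and cell barcode, aligned to mm10; Cell Ranger is version 6.1.2 in the submitters' processing notes and 6.0.1 in the file headers. The deposited counts were not normalized. Cells were kept with 1000 to 6000 genes and under 7.5% mitochondrial UMIs. UMIs were summed per library and cell group into 9 sums, and edgeR 4.0.16 (R 4.3.3, limma 3.58.1) tested them with TMM factors, its filter on low counts, the library as a block, a quasi-likelihood fit with 4 residual degrees of freedom and Benjamini-Hochberg adjustment over 12798 genes at 0.05. The 9 gate genes and the 3 given markers were left out of tests. Nothing in the labels says that the libraries came from separate animals beyond the words biological replicate. With the library as a block, p-values measure how far differences between groups varied across these 3 libraries, 2 Kaede-green and 1 Kaede-red. They cannot be read as a spread between animals.

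CPM is the UMI count of a gene scaled to the total of its sum. Scrublet (scanpy 1.11.5) scored doublets, no cell was removed for its score, and leaving out the top 8% was an alternative, as were DESeq2 1.42.0 and other gates. Shares have exact Clopper-Pearson 95% intervals. Cells were thinned to 2000 UMIs to compare shares across depths, which left out 2 CD8 T cells. Genes were placed by identifier with a GENCODE annotation, and 99.8% matched. The tests were tried on simulated data first. Named genes were those of 23 lists, the 12 largest called changes per direction and comparison with at least 20 CPM and 1 sign in all libraries, and the 10 with the largest smaller fold change over both comparisons. Members, lists and tests were chosen with earlier results of these data known. Results for a few genes are not reported here.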

Additional observations from a re-analysis of the deposited data

Results flagged for a closer look

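Some named genes were on one side of the comparison in both Kaede-green libraries and on the other in Kaede-red. With a single Kaede-red library, none of these differences between colors was tested. Over NK cells the log2 ratio of Ly49+ DN T cells was -0.43 and -0.27 in the Kaede-green libraries and 2.96 in Kaede-red for *Ccl5*, whose level in Kaede-red NK cells was 267 CPM. It was -3.89 and -2.82 against 0.84 for *Ccl4*, -1.57 and -1.71 against 0.32 for *Ifng*, and -0.20 and -0.16 against 0.70 for *Ifngr1*. Smaller reversals over NK cells were 0.22 in Kaede-red for *Rbpms*, -0.0596 for *Il2ra* and -0.19 for *Stmn1*.

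Over CD8 T cells *Gzma* was at -0.45 and -0.30 in the Kaede-green libraries and at 0.46 in Kaede-red, *Tcrg-C2* at 0.98 and 0.71 against -0.0727, and *Trgv2* at 1.69 and 0.88 against -0.17. The Kaede-red ratio was -0.43 for *Ifit2*, -0.22 for *Il2rb*, -0.26 for *Klre1*, -0.15 for *Tnfsf10* and 0.22 for *Dpp4*, each opposite to both Kaede-green libraries.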

How the results depend on the processing

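The library was a block in the test, so the groups of a library were paired by their source. Without the block, 601 genes were higher and 820 lower than in CD8 T cells and 679 higher and 779 lower than in NK cells, and of the named genes called, 29 of 115 and 23 of 107 lost the call, among them *S1pr1*, *Klf2* and *Trbc2* over CD8 T cells and *Tcf7* over NK cells. Of the gene lists the block bore most on the cell cycle genes, of which 12 of 15 were lower than in CD8 T cells with it and none without. Leaving out 1 library gave 666 to 1485 higher and 870 to 1769 lower genes over CD8 T cells, and 689 to 1343 higher and 706 to 1689 lower over NK cells; the lowest counts came without Kaede-green 2, when 16 named genes lost the call over CD8 T cells (*Trbc2*, *Lef1* and *Eomes* among them) and 17 over NK cells (*Xcl1* and *Tcf7* among them). Against CD8 T cells with *Klra1* or *Klra6* 238 genes were higher and 413 lower, 31 of 111 named genes lost the call, *Id3*, *Tcf7* and *S1pr1* among them, and *Eomes* turned to -0.21. *Ikzf2*, *Fcer1g*, *Trdc* and *Klra7* kept their call over CD8 T cells under every alternative run. DESeq2, no filter on low counts, 6 sums, the doublet scores, stricter gates and a range of 4000 to 20000 UMIs moved each count over all genes by less than 1.5 times. Counts of the short gene lists moved by more under some of these, such as the 5 γ and δ variable genes higher than in CD8 T cells, which were 3 with 6 sums and 2 with at least 3 UMIs of *Cd3e*. The *Ifng* call over NK cells was lost under 7 alternatives.

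With at least 2 UMIs of *Klra1* and *Klra6* the share of Ly49+ DN T cells was 2.94%, 2.61% and 2.31% by library, with at least 3 UMIs of *Cd3e* 3.29%, 2.93% and 2.52%, and without cells holding *Cd8a* 3.07%, 2.02% and 1.97%. Thinned to 2000 UMIs the cells with *Trac* only, both, *Trdc* only and neither were 59.8%, 2.06%, 7.25% and 30.9%, and at 2 UMIs or more of each gene 78.4%, 3.40%, 8.59% and 9.66%. Depth limits the classes: a cell without a UMI of *Trac* may still hold its RNA, and a single UMI of *Trac* may be stray. No paired analysis between colors was possible because Kaede-red has 1 library.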
